A study of Mus musculus with 3 samples.

Results

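The platelet-derived growth factor (PDGF) family was read out cell by cell in 3 mouse melanomas. Its members here are the 4 ligand genes Pdgfa, Pdgfb, Pdgfc and Pdgfd and the 2 receptor genes Pdgfra and Pdgfrb, taken by gene identifier, 6 of the 36530 features in the count tables. All 6 were detected, and no other feature carried the same counts as a member. The tumors arose in mice on a C57BL/6 background in which topical 4-OH tamoxifen activated a Cre recombinase driven by the tyrosinase promoter, so that melanocytes expressed a mutant Braf allele. Some mice of the study also carried a Cre-dependent tdTomato reporter. One tumor was untreated, a further tumor was regressing on vemurafenib, an inhibitor of mutant Braf given by mouth, and the remaining tumor had progressed on the drug. The comparison of these states addressed how factors that act on the stroma change as a tumor responds and relapses. Each state was 1 tumor, so that no comparison between states has a replicate check and none carries a p-value. The labels give no age or sex and tell the mice apart by treatment only. By its Xist level, given below, the regressed tumor also differed in sex from the others.

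PDGF ligands are secreted dimers that bind a pair of receptor tyrosine kinases on neighboring cells. The alpha receptor is known from fibroblasts and their precursors, and the beta receptor also from the mural cells (pericytes and smooth muscle) that wrap blood vessels. In skin tumors the family is best known for signals from epithelial, endothelial and tumor cells to the connective tissue around them.

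Across all cells the tables held 2751 UMIs (unique molecular identifiers, each standing for 1 captured transcript) of Pdgfa in 1208 cells, which is 9.53% of cells. Pdgfa encodes the A chain, a ligand of the alpha receptor. Pdgfb, the B chain, which binds both receptors and is known for drawing mural cells to vessels, had 407 UMIs in 292 cells. Pdgfc, a ligand with a blocking domain that must be cut off by a protease, had 223 UMIs in 193 cells, and Pdgfd, a ligand of the beta receptor made in the same latent form, had 1037 UMIs in 920 cells. The receptors were found in far more cells. Pdgfra had 10705 UMIs in 4469 cells (35.3%) and Pdgfrb had 11323 UMIs in 4838 cells (38.2%). In GRCm38.p6 the genes lie at chr5:138976014-139000792 (Pdgfa), chr15:79995865-80024614 (Pdgfb), chr3:81036416-81214040 (Pdgfc), chr9:6168363-6534284 (Pdgfd) and chr5:75151322-75198206 (Pdgfra).

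Pdgfa and Pdgfra, which sit on the same chromosome, had their highest levels in different cells of these tumors, tumor cells and stroma, and stretches before annotated starts of each are shown for that contrast. The starts are those of RefSeq's table, and both stretches lie inside the gene spans given above. That table of starts, for GRCm38.p6, held 4 of the 6 members and lacked Pdgfb and Pdgfrb. Capitals mark GGGCGG or its reverse complement, the core of the GC box bound by Sp1-type factors.
Pdgfa, chr5:138995025-138995194, minus strand, 170 bases of which the last 13 lie in its own first exon: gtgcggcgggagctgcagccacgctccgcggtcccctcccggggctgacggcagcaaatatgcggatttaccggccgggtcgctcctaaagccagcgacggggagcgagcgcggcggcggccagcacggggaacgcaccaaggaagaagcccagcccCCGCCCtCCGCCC
Pdgfra, chr5:75152001-75152250, plus strand, 250 bases: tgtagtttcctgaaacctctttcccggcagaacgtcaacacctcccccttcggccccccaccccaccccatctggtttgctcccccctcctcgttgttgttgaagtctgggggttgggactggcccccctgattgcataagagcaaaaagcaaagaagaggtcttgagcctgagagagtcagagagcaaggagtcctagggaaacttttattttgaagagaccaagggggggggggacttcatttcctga
The 250 bases before the start held GGGCGG, on either strand, in 32.7% of 32851 promoters. Both annotated starts of Pdgfa held it, while the windows of Pdgfc, Pdgfd and Pdgfra did not. The shown Pdgfa stretch leaves out the end of its 250-base window, which runs to 138994945. Both of its marked matches lie within the 13 bases of its own first exon. TATAAA was in 12.4% of promoters and, among these members, in that of Pdgfd. CATGTG, an E-box of the kind bound by Mitf, was in 12.3% of promoters and in none of the members' windows. These are matches of letters only.

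The untreated, regressed and progressed tumors gave 4095, 3726 and 4849 cells and 22202192, 12413268 and 26948940 UMIs, with no barcode shared between tumors. Levels are given as UMIs per 1000000 (UPM) of all UMIs in a group of cells, with 95% limits that cover counting error only. The regressed library stood apart. Its median cell held 2658 UMIs, against 4496 and 4566. Haemoglobin genes took 3.96% of its UMIs, against 0.272% and 0.00848%. Xist, an RNA of female cells, was at 0.403 UPM in it, against 1494 and 1735. The regressed tumor thus read as male and the others as female, so sex and state cannot be told apart in comparisons with it. Cells are grouped by the 25 cluster names that the authors deposited. The 2 clusters named tumor carried the melanocytic list of 7 genes at summed levels of 2337 to 4964 UPM in groups of at least 20 cells, against 52.9 to 85.4 UPM in macrophages. Much of that sum was tWPRE, a feature that the labels do not describe and that was taken here as a transgene sequence, at 2527, 1346 and 4225 UPM in untreated, regressed and progressed tumor cells, and the neural crest gene Sox10 was at 697, 534 and 676 UPM. The list of 4 Schwann cell markers summed to 1312 to 2311 UPM in the same clusters. The pigment gene Mlana of the melanocytic list was at 0 in the cluster Tumor1 of all 3 tumors and was found in the regressed tumor's Tumor2. Of the same list, Pmel and Tyrp1 were also at 0 in the untreated Tumor1, and tdTomato and Tyrp1 in the regressed Tumor1. The progressed Tumor1 lacked Mlana only. The 7 endothelial markers were all found in the blood vessel cluster of each tumor, summing to 4528 to 5036 UPM. The clusters Undefined1 and Undefined2 carried keratinocyte markers (Krt14 at 4953 to 18988 UPM).

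**Figure D1:**
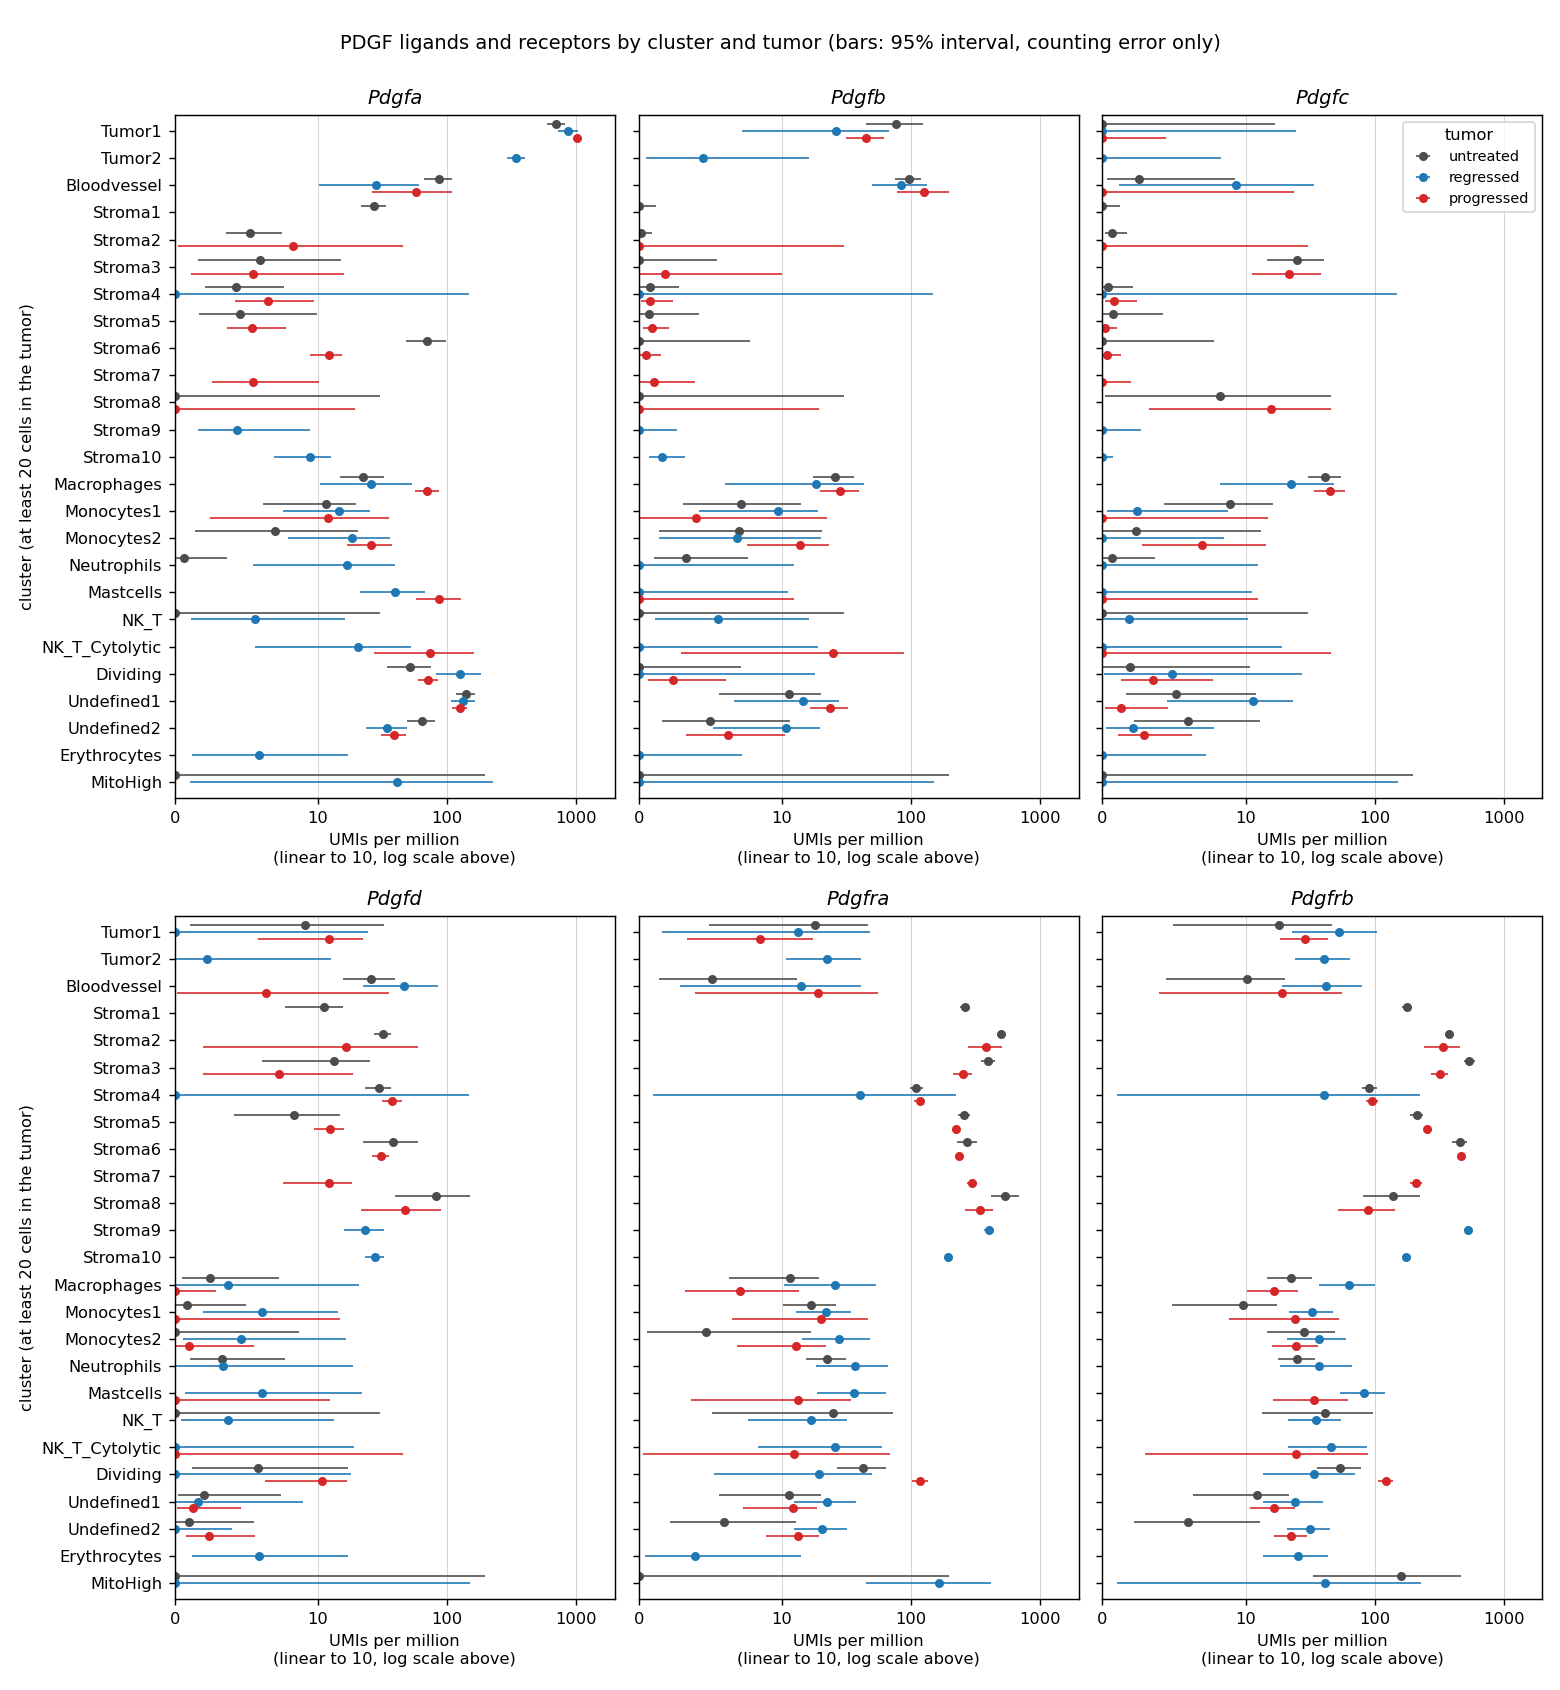
Level of each member in each cluster of at least 20 cells, in UPM on an axis that is linear to 10 and logarithmic above, with 1 point per tumor and bars for the 95% counting limits. Pdgfa peaks in Tumor1, Pdgfb in blood vessel cells, Pdgfc in macrophages and Stroma3, and Pdgfd, Pdgfra and Pdgfrb in the stroma clusters.

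Each ligand had its own main cells. By level, Pdgfa was highest in tumor cells and Pdgfb in blood vessel cells, Pdgfc UMIs lay mostly in immune cells in the untreated and progressed tumors, and Pdgfd had most of its UMIs in the stroma, where both receptors lay. Tumor cells were 1.17%, 11% and 3.30% of the cells of the untreated, regressed and progressed tumors, yet held 23.8%, 52.3% and 54.8% of the Pdgfa UMIs. Stroma, with many more cells, held 25.0%, 10.5% and 8.89% of them. Stroma clusters held 97.4%, 92.2% and 93.0% of the Pdgfra UMIs and 96.0%, 87.9% and 93.2% of the Pdgfrb UMIs. Stroma also held 85.8% to 91.7% of the Pdgfd UMIs. Set against all features, 1 of the 4 members with enough UMIs, Pdgfa, was at least 2-fold higher in tumor cells than in stroma in all 3 tumors, where 5.81% of the 11374 features tested were. In the other direction, Pdgfra and Pdgfrb, 2 of the same 4, were at least 2-fold higher in stroma in all 3 tumors, where 5.8% of features were. Enough UMIs here means at least 20 in the sums compared.

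**Figure D2:**
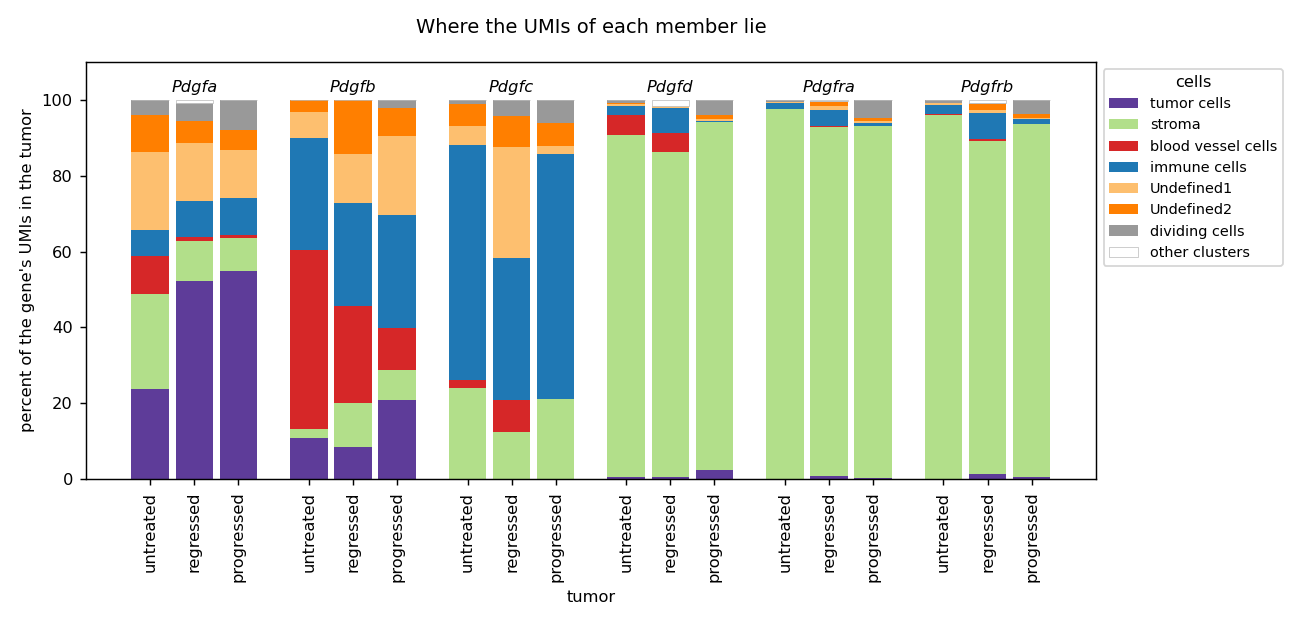
Percent of each member's UMIs in each kind of cell, 1 bar per tumor. The share of Pdgfa UMIs in tumor cells is 23.8% in the untreated tumor and over 50% in the other tumors, and stroma holds 87.9% to 97.4% of both receptors' UMIs.

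Pdgfa was the ligand with the clearest tumor cell source. The 158 Pdgfa UMIs of untreated tumor cells compared with 285 of regressed and 844 of progressed ones. That came to 599 UPM (95% limits 509 to 700), 478 UPM (424 to 537) and 1005 UPM (939 to 1075). The progressed tumor's cells stood above both others, and the regressed tumor's cells were lowest. On the log2 scale the progressed tumor cells were 1.07 (0.88 to 1.27) above the regressed and 0.75 (0.50 to 1.0) above the untreated, and the regressed were 0.32 lower than the untreated (log2 ratio -0.32, -0.61 to -0.03). Beside these ratios, 17.2% of all features tested in tumor cells were at least 2-fold apart between progressed and regressed, 15.3% between progressed and untreated and 22.7% between regressed and untreated. Giving each cell equal weight made the 3 ratios 1.35, 0.42 and -0.93 in the same order, and thinning each cell to 1000 UMIs made the first pair 0.84 and 0.33.

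The lower Pdgfa of the regressed tumor was seen over both tumor clusters together and not within Tumor1. Tumor1 took in 44 of the 48 tumor cells of the untreated tumor, 61 of the 410 of the regressed and 156 of the 160 of the progressed, and Tumor2 held 349 regressed cells against 4 and 4. Within Tumor1, Pdgfa was at 703 UPM (596 to 822) in the untreated, 867 UPM (725 to 1029) in the regressed and 1017 UPM (949 to 1088) in the progressed tumor. The regressed value thus lay between the others and its limits overlapped both. In Tumor1 the log2 ratio of regressed to untreated was 0.30 (-0.04 to 0.65), that of progressed to regressed 0.23 (-0.04 to 0.51) and that of progressed to untreated 0.53 (0.28 to 0.79). In the regressed tumor, Tumor2 carried Pdgfa at 346 UPM (294 to 405), and Tumor1 was 2.51-fold higher (log2 1.33, 0.98 to 1.67). Whether Tumor2 marks the state or this tumor cannot be told apart, since the other tumors gave 4 cells each. The median Tumor2 cell of the regressed tumor held 768 UMIs, against 1712 in Tumor1 of the same tumor, and the part of depth in the difference was not tested.

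Pdgfa was also uneven from cell to cell. Per tumor cell, the untreated tumor ranged from 0 to 17 Pdgfa UMIs with a median of 3, the regressed from 0 to 17 with a median of 0, and the progressed from 0 to 20 with a median of 4.5. Cells with no Pdgfa UMI numbered 7 of 48, 268 of 410 and 8 of 160. The tenth of cells with the most Pdgfa UMIs held 35.4%, 60.4% and 27.0% of them, where the regressed cells were also the shallowest. A Pdgfa UMI was seen in 85.4%, 34.6% and 95% of tumor cells. When each cell was thinned to 1000 UMIs, which left out 3, 244 and 5 shallower cells, the shares were 48.9% (33.7 to 64.2), 34.9% (27.7 to 42.7) and 61.9% (53.8 to 69.6). In stroma the thinned shares were 0.846%, 0.981% and 0.853%. A split was also made by UMIs of tdTomato or tWPRE. Tumor cells with such a UMI carried Pdgfa at 641, 482 and 998 UPM (45, 214 and 156 cells), and the 196 regressed tumor cells without one carried 472 UPM. Without one, the 3 untreated cells held no Pdgfa UMI and the 4 progressed cells held 15.

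**Figure D3:**
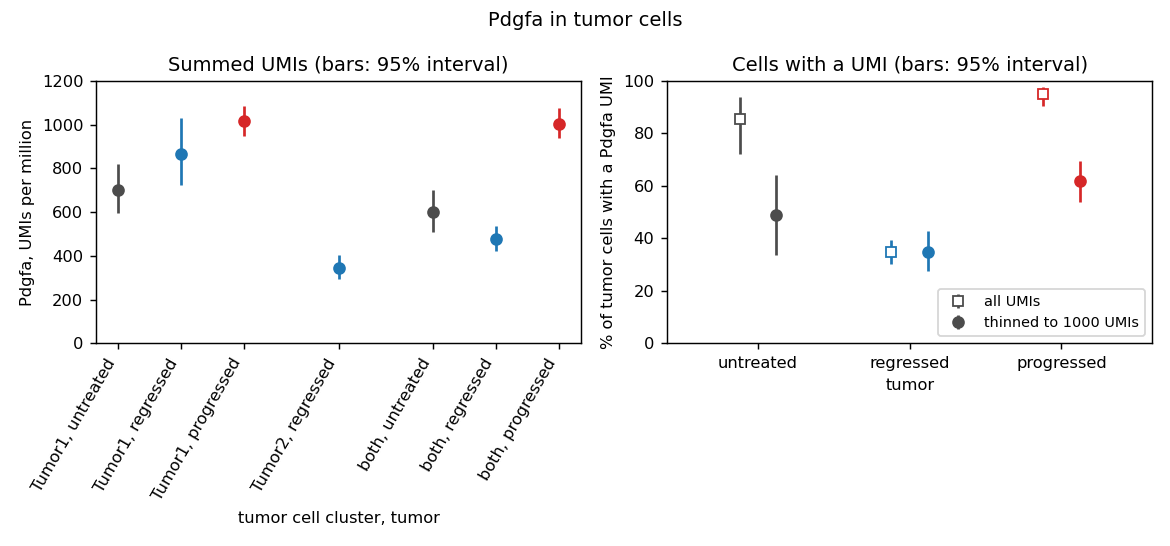
Pdgfa in tumor cells of the 3 tumors: level in UPM with 95% counting limits for all tumor cells and for each tumor cluster, and percent of cells with a Pdgfa UMI before and after thinning to 1000 UMIs. Among all tumor cells the regressed tumor is lowest, at 478 UPM, while within Tumor1 its 867 UPM lies between the other tumors.

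Against the stroma of the same tumor, tumor cells were 50.8-fold higher in Pdgfa in the untreated (log2 5.67, 5.34 to 5.99), 53.9-fold in the regressed (log2 5.75, 5.34 to 6.19) and 129-fold in the progressed tumor (log2 7.01, 6.75 to 7.28). Stroma itself carried 11.8 UPM (10.1 to 13.7), 8.87 UPM (6.72 to 11.5) and 7.79 UPM (6.54 to 9.21). The next level after the tumor clusters was that of Undefined1, the cluster with keratinocyte markers, at 140 (118 to 166), 134 (107 to 166) and 125 UPM (109 to 144), with limits that overlapped among tumors. In the order of all 53 cluster-by-tumor groups of at least 20 cells, the 3 Tumor1 groups came first and the regressed Tumor2 group next, with limits clear of the groups above and below it. Neighbors below that often overlapped. Blood vessel cells carried Pdgfa at 86.0 UPM (66.7 to 109) in the untreated, 28.0 UPM (10.3 to 60.9) in the regressed and 57.3 UPM (26.2 to 109) in the progressed tumor, where the last 2 values rest on 6 and 9 UMIs.

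Among the smaller sources, Pdgfa was higher in immune cells of the progressed than of the untreated tumor (log2 2.31, 1.82 to 2.81). It was lower in stroma (-0.60, -0.94 to -0.26) and Undefined2 (-0.71, -1.20 to -0.22). The immune sums differed in their mix of clusters, and the part of that mix in the immune ratio was not tested. The untreated sum took in 391 neutrophils with 1 Pdgfa UMI (0.657 UPM). Mast cells of the progressed tumor carried 87.4 UPM (57.1 to 128; 26 UMIs in 85 cells). Most of the immune UMIs of the progressed tumor were in macrophages. They carried 22.3 UPM (14.7 to 32.5; 27 UMIs) in the untreated, 26.0 UPM (10.4 to 53.5; 7 UMIs) in the regressed and 70.3 UPM (56.5 to 86.5; 89 UMIs) in the progressed tumor. The progressed value lay above both others, with log2 ratios of 1.66 (1.02 to 2.33) against untreated and 1.44 (0.33 to 2.79) against regressed. Thinned shares of macrophages with a Pdgfa UMI were 2.30%, 4.35% and 7.53%, and those of stroma were 0.846% to 0.981%. Over the same cells the melanocytic list summed to 52.9, 59.4 and 85.4 UPM, highest in the progressed tumor too, and its part in the macrophage values was not tested.

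Pdgfb had its highest level in blood vessel cells. They held 47.2%, 25.7% and 11.2% of its UMIs in the untreated, regressed and progressed tumors, next to 29.6%, 27.1% and 29.8% in immune cells. In the vessel cluster it was at 96.3 UPM (75.7 to 121; 75 UMIs, 74 cells) in the untreated, 83.9 UPM (49.8 to 133; 18 UMIs, 48 cells) in the regressed and 127 UPM (77.8 to 197; 20 UMIs, 28 cells) in the progressed tumor. The limits of the 3 tumors overlapped. The log2 ratio of regressed to untreated was -0.20 (-1.03 to 0.56), that of progressed to regressed 0.60 (-0.39 to 1.60) and that of progressed to untreated 0.40 (-0.39 to 1.13), so that changes of up to about these limits were not detectable at this depth. The endothelial genes Pecam1 and Cdh5 were at 821 to 1045 UPM and 669 to 751 UPM in these cells. Vessel cells stood above macrophages of the same tumor by 1.91 (1.29 to 2.56), 2.18 (0.69 to 3.96) and 2.16 (1.30 to 2.99) on the log2 scale. Against tumor cells they were at 0.58 (-0.19 to 1.43) in the untreated tumor, where the limits included 0, and at 3.06 (1.67 to 4.68) and 1.53 (0.67 to 2.35) in the others. Stroma was nearly empty of Pdgfb, with 4, 8 and 14 UMIs in all.

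Tumor cells also held Pdgfb, at levels that differed between tumors. It was at 64.4 UPM (37.5 to 103.1; 17 UMIs) in the untreated, 10.1 UPM (3.69 to 21.9; 6 UMIs) in the regressed and 44.1 UPM (31.0 to 60.7; 37 UMIs) in the progressed tumor. The regressed tumor cells were lowest, with a log2 ratio of -2.68 (-4.31 to -1.27) against untreated and of 2.13 (0.87 to 3.67) for progressed against regressed. Within Tumor1 the values were 77.1, 26.5 and 44.7 UPM on 17, 4 and 37 UMIs, and all 3 ratios had limits on both sides of 0. The endothelial list in Tumor1 summed to 18.1, 26.5 and 7.24 UPM, and its part in the Pdgfb values was not tested. No tumor cell held more than 3 Pdgfb UMIs, and 36 of 48, 404 of 410 and 128 of 160 held none.

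With both ligands counted, 2 of the 3 members tested in tumor cells were at least 2-fold apart between progressed and regressed, Pdgfa and Pdgfb, each higher in the progressed tumor, against 17.2% of all features. For regressed against untreated 2 of 3 passed the same fold, Pdgfb lower and Pdgfrb higher, against 22.7%. The log2 ratio of Pdgfrb was 1.53 (-0.002 to 3.50) on 26 and 4 UMIs, with limits that included 0. For progressed against untreated 0 of 3 passed the fold, against 15.3%.

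Pdgfc was found in macrophages and in a small part of the stroma. Immune cells together held 62 of its 100 UMIs in the untreated, 9 of 24 in the regressed and 64 of 99 in the progressed tumor, and Undefined1 held 7 of the 24 regressed ones. Macrophages carried 41.3 UPM (30.7 to 54.5; 50 UMIs) in the untreated, 22.3 UPM (8.17 to 48.5; 6 UMIs) in the regressed and 45.0 UPM (34.1 to 58.4; 57 UMIs) in the progressed tumor. The 3 ranges overlapped. The related cluster Monocytes1 held 8.90 UPM on 10 UMIs, 2.43 UPM on 2 UMIs and no UMI, so that macrophages were above it by 2.22 (1.22 to 3.36) and 3.20 (0.71 to 6.54) on the log2 scale in the untreated and regressed tumors and at least 3.73-fold higher in the progressed tumor, where 3 UMIs over the cluster were taken as the floor. Among stromal clusters Stroma3 stood out. It carried Pdgfc at 25.2 UPM (14.7 to 40.3; 17 UMIs in 120 cells) in the untreated and 21.8 UPM (11.2 to 38.0; 12 UMIs in 88 cells) in the progressed tumor, against 0.522 and 0.528 UPM in the other stroma (log2 5.59, 4.25 to 7.10, and 5.36, 3.99 to 6.79). Tumor cells held no Pdgfc UMI in any tumor, which allows up to 11.4, 5.03 and 3.57 UPM by the same floor. In whole stroma Pdgfc was at 1.70, 0.467 and 1.19 UPM on 24, 3 and 21 UMIs. The log2 ratio of regressed to untreated was -1.87 (-4.24 to -0.15), and it was 0.17 without the cluster Stroma10, which held most regressed stromal cells. Stroma3 gave 12 cells in the regressed tumor.

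Pdgfd was the stromal ligand, and it kept nearly the same level in the 3 tumors. Stroma carried 24.6 UPM (22.1 to 27.3; 346 UMIs), 26.3 UPM (22.5 to 30.6; 169 UMIs) and 23.8 UPM (21.6 to 26.2; 419 UMIs) in the untreated, regressed and progressed tumors. On the log2 scale the ratio of regressed to untreated was 0.10 (-0.18 to 0.37), that of progressed to regressed -0.14 (-0.40 to 0.12) and that of progressed to untreated -0.05 (-0.25 to 0.16), so counting error leaves room for differences of up to 0.40 in size. The thinned shares of stromal cells with a Pdgfd UMI were 2.50%, 2.54% and 2.50%, against 0% to 0.508% of immune cells. Among stromal clusters the levels were less even. Stroma8 was highest in the untreated tumor at 82.1 UPM (39.4 to 151; 10 UMIs in 23 cells), 1.77 (0.70 to 2.67) above the other stroma on the log2 scale, and at 47.3 UPM in the progressed (9 UMIs; log2 ratio 1.01, -0.13 to 1.94). Stroma4 was at 29.5 and 37.6 UPM and Stroma6 at 38.0 and 30.7 UPM in those tumors, while Stroma5, at 8.35 and 12.5 UPM, was 1.65 and 1.22 lower than the rest of the stroma (log2 ratios -1.65 and -1.22). In the regressed tumor its 2 main clusters were alike, Stroma9 at 23.1 and Stroma10 at 27.6 UPM. Blood vessel cells carried Pdgfd at 25.7 UPM on 20 UMIs, 46.6 UPM on 10 UMIs and 6.37 UPM on 1 UMI, within counting error of the stroma of the same tumor in each case.

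The receptors were stromal genes throughout, and the untreated tumor had the highest stromal Pdgfra. Pdgfra, the alpha receptor, was at 342 UPM (332 to 351; 4809 UMIs) in the untreated, 241 UPM (229 to 254; 1550 UMIs) in the regressed and 216 UPM (209 to 223; 3800 UMIs) in the progressed stroma. The limits of the 3 tumors did not overlap. The regressed stroma was at -0.50 (-0.59 to -0.42) and the progressed at -0.66 (-0.72 to -0.60) on the log2 scale against the untreated. Pdgfrb, the beta receptor (chr18:61045127-61085067), was at 276 UPM (267 to 285; 3886 UMIs), 255 UPM (243 to 268; 1640 UMIs) and 287 UPM (279 to 295; 5040 UMIs), a narrower spread, with log2 ratios of regressed to untreated of -0.11 (-0.20 to -0.03), progressed to regressed of 0.17 (0.09 to 0.25) and progressed to untreated of 0.05 (-0.01 to 0.11). Neither receptor reached a 2-fold difference in stroma. Of the members tested there, 1 of 5 passed for regressed against untreated (Pdgfc, lower), against 20.8% of features. For progressed against regressed 1 of 6 passed (Pdgfc, higher), also against 20.8%. That log2 ratio was 1.35 (-0.39 to 3.74) on 21 and 3 UMIs, with limits that included 0. For progressed against untreated 0 of 5 passed, against 9.27%.

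Stromal clusters were filled unevenly by the tumors, so cluster mix and tumor cannot be told apart for the regressed stroma. Of its 1918 stromal cells, 1537 were in Stroma10 and 310 in Stroma9, which together gave 4 untreated and 8 progressed cells. Without Stroma10 the regressed stroma was above the untreated in both receptors, by 0.17 for Pdgfra and 0.86 for Pdgfrb on the log2 scale. Scaling by TMM factors, which centre the bulk of genes, shifted the stromal ratios by -0.25 for regressed against untreated and by 0.31 for progressed against regressed, and took the progressed against regressed ratio of Pdgfra from -0.16 (-0.24 to -0.07) to 0.15. It also took the share of 2-fold calls that were higher from 65.8% to 46.9% for regressed against untreated and from 23.9% to 47.3% for progressed against regressed. For progressed against untreated the shift was 0.06.

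Within clusters shared by the untreated and progressed tumors, the lower Pdgfra of the progressed stroma was seen in some and not in others. Stroma3 was at 395 and 252 UPM (log2 -0.65, -0.96 to -0.35) and Stroma8 at 542 and 342 UPM (log2 -0.67, -1.18 to -0.15), and Stroma5 was at 257 and 224 UPM (log2 -0.20, -0.37 to -0.02). Stroma2, at 498 and 380 UPM, and Stroma6, at 274 and 234 UPM, had limits that reached 0, as did Stroma4, at 110 and 117 UPM (log2 0.08, -0.14 to 0.31). In Pdgfrb the same clusters did not move together. Stroma3 was lower in the progressed tumor (544 and 321 UPM; log2 -0.76, -1.03 to -0.50), Stroma5 was higher (212 and 257 UPM; log2 0.27, 0.09 to 0.46), and Stroma6 was at 458 and 466 UPM. Clusters held different numbers of cells in the 2 tumors: Stroma2 had 1144 untreated and 26 progressed cells, and Stroma6 had 83 and 1255.

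**Figure D4:**
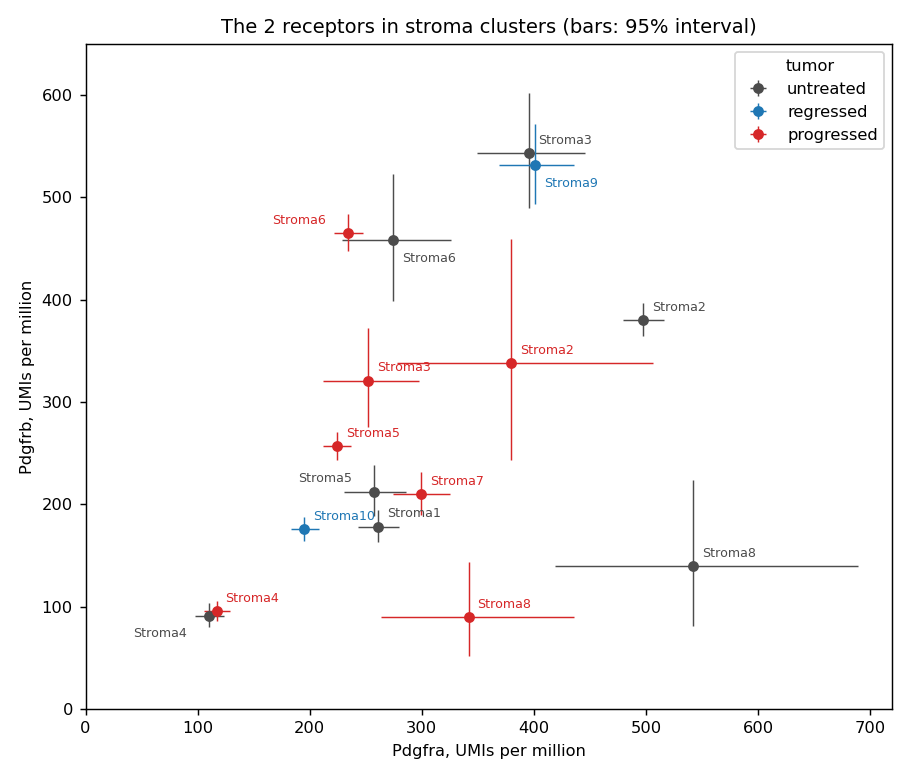
Pdgfra against Pdgfrb level, both in UPM, in each stroma cluster and tumor with at least 20 cells and 10 Pdgfra UMIs, with bars for the 95% counting limits. Stroma4 is low in both receptors, Stroma8 is high in Pdgfra and low in Pdgfrb, and Stroma6 and the regressed Stroma9 are high in Pdgfrb.

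Stromal clusters differed in their balance of receptors more than tumors did. Of all receptor UMIs, Pdgfrb made up 44.7% of untreated stroma, 51.4% of regressed and 57.0% of progressed stroma, a share that is read between groups and not as an order of the 2 genes. At one end Stroma8 had 20.5% (12.4 to 30.8) in the untreated and 20.7% (12.6 to 31.1) in the progressed tumor. At the other end Stroma6 had 62.5% and 66.5%. Stroma4 had the lowest levels of both receptors among clusters with many cells, with log2 ratios to the other stroma of -1.83 and -1.05 for Pdgfra and of -1.80 and -1.82 for Pdgfrb, and a balance of 45.2% and 44.9%. In the regressed tumor Stroma9 carried Pdgfra at 401 UPM (369 to 436) and Pdgfrb at 532 UPM (494 to 571), and Stroma10 carried 195 UPM (183 to 208) and 175 UPM (164 to 188). Stroma9 was thus above the other regressed stroma in both, by 1.02 (0.87 to 1.18) and 1.57 (1.42 to 1.71). In the untreated tumor Stroma2, its largest stromal cluster, carried Pdgfra at 498 UPM, 1.12 (1.03 to 1.20) above the other stroma.

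Many stromal cells held both receptors. Cells with a UMI of each numbered 1051, 460 and 1185, and cells with neither were 23.7%, 37.4% and 24.0% of stromal cells in the untreated, regressed and progressed tumors. A UMI of Pdgfra was seen in 58.9%, 43.3% and 52.1% of stromal cells, and of Pdgfrb in 57.4%, 43.3% and 58.6%. Thinned to 1000 UMIs, these shares were 23.4%, 19.8% and 18.6% for Pdgfra and 21.5%, 20.2% and 24.1% for Pdgfrb. Immune cells, thinned alike, had Pdgfra in 0.975%, 3.18% and 0.602% and Pdgfrb in 2.24%, 3.18% and 2.26%. The median stromal cell held 4654, 3151.5 and 4388 UMIs and the median immune cell 3651, 2173 and 3736. After thinning, 5.31%, 4.21% and 4.68% of stromal cells held both receptors, next to 5.05%, 4.0% and 4.48% for the product of the separate shares. At this depth the receptors thus co-occurred in a cell about as often as that product gives.

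The cluster Stroma6 contained a few cells of a mural kind with a PDGF pattern of their own. These cells were picked after the values were seen, as those with at least 10 UMIs of the mural list (Rgs5, Cspg4, Kcnj8, Abcc9, Notch3, Myh11 and Des), and numbered 10, 5 and 9 in the untreated, regressed and progressed tumors. They carried Pdgfrb at 942 UPM (747 to 1172), 1013 UPM (619 to 1565) and 1051 UPM (810 to 1342), against 352, 506 and 459 UPM in the other Stroma6 cells. A Pdgfrb UMI was present in 9 of 10, 5 of 5 and 9 of 9 of them. Pdgfa was also high there, at 353 UPM (238 to 504; 30 UMIs), 253 UPM (82.2 to 591; 5 UMIs) and 526 UPM (360 to 742; 32 UMIs), against 7.71, 0 and 6.57 UPM in the other cells of the cluster. A Pdgfa UMI was present in 7 of 10, 3 of 5 and 6 of 9 of the picked cells. The limits do not cover the spread between these few cells. In the regressed tumor, with 5 mural and 8 other cells, the limits of Pdgfa and Pdgfrb overlapped. Pdgfra was low in them, with 3, 0 and 6 UMIs, against 236 to 460 UPM in the other cells. They held 30 of the 33 untreated and 32 of the 69 progressed Pdgfa UMIs of Stroma6, and none held a UMI of Pdgfb or Pdgfc. The mural list as a whole was at 1080 UPM in untreated and 289 UPM in progressed Stroma6, and fibroblast markers were all 6 found in the cluster. The picked Stroma6 cells were deeper, at medians of 7994, 4057 and 6274 UMIs, against 4417, 763.5 and 3944.5, and the part of depth was not tested. Over all stroma the same cut picked 17, 6 and 10 cells, with Pdgfra at 300, 47.2 and 109 UPM. In the untreated tumor the low Pdgfra was thus limited to the picked cells of Stroma6 (other stroma 342 UPM).

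**Figure D5:**
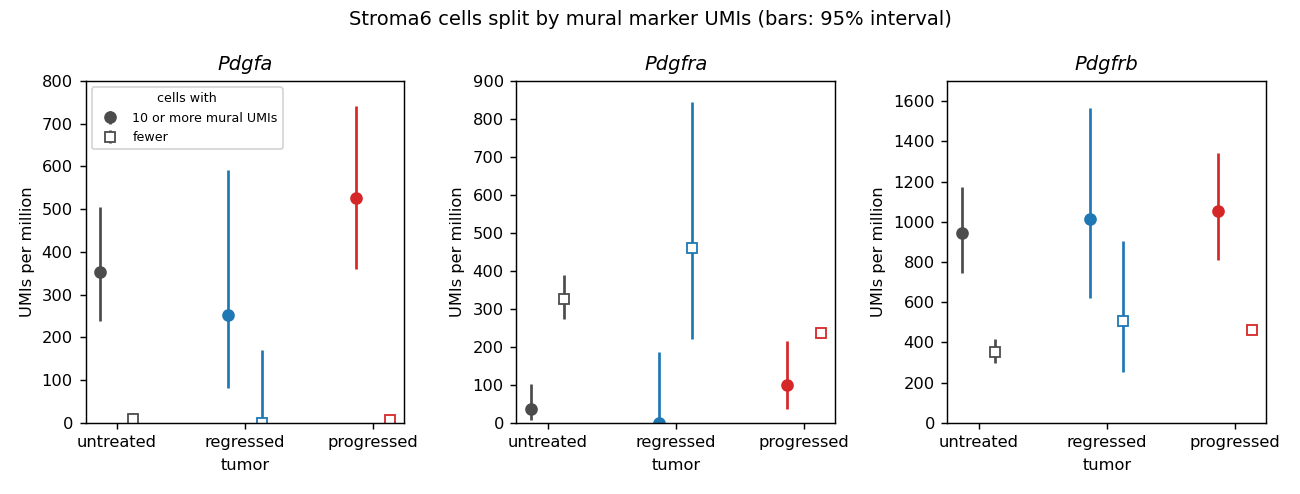
Levels of Pdgfa, Pdgfra and Pdgfrb, in UPM with 95% counting limits, in Stroma6 cells with at least 10 mural UMIs and in the other Stroma6 cells of each tumor. The mural cells are higher in Pdgfa and Pdgfrb and lower in Pdgfra in all 3 tumors, with limits that overlap in the regressed tumor for Pdgfa and Pdgfrb.

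In tumor, immune and blood vessel cells the receptors were low. In tumor cells Pdgfra was at 18.9, 20.1 and 8.34 UPM on 5, 12 and 7 UMIs, which is 5.55%, 8.35% and 3.86% of the stromal level of the same tumor. The stromal gene Dcn, which encodes the matrix protein decorin, was in the same tumor cells at 11.0%, 8.08% and 6.73% of its stromal level. Pdgfrb was at 15.2, 43.6 and 28.6 UPM on 4, 26 and 24 UMIs, or 5.49%, 17.1% and 9.98% of the stromal level, and the limits of the untreated (4.13 to 38.8 UPM) and regressed (28.5 to 63.9 UPM) values overlapped. In regressed tumor cells Pdgfrb thus stood above the Dcn share, with a ratio to stroma of 0.171 (0.111 to 0.251). In progressed tumor cells the ratio was 0.0998 (0.0639 to 0.149), with counting limits that included the Dcn share. In the regressed tumor Pdgfrb was above the Dcn share in nearly all other groups compared. The exceptions were Monocytes1 (12.8%, against 12.9% for Dcn) and Undefined1 (9.48%, against 10.5%). Furthest above were mast cells, at 82.1 UPM (32.1% of the stromal level, against 9.75%), and macrophages, at 63.1 UPM (24.7%, against 10.6%). Cytolytic NK and T cells (18.1%, against 8.69%) and blood vessel cells (16.4%, against 10.1%) were above it as well. Of the other tumors, progressed mast cells (11.7%, against 5.57%) stood above it. Monocytes2 did so in the untreated (10.2%, against 4.21%) and progressed tumors (8.62%, against 4.49%). Macrophages did not in the untreated (8.08%, against 8.72%) and progressed tumors (5.79%, against 7.38%). The part of free RNA in these values was not tested. Blood vessel cells carried Pdgfrb at 10.3, 42.0 and 19.1 UPM, and their mural list summed to 77.0, 196 and 25.5 UPM with Myh11 at 0 in all 3 tumors.

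The other genes of the pathway were followed in 5 lists of 28 genes by role. In stroma the list with the largest median difference between the regressed tumor and each other tumor was that of early genes known to be induced by PDGF in cultured fibroblasts (Fos, Egr1, Myc, Ccl2, Cxcl1, Has2 and Ptgs2). Of its 7 genes, 4 were at least 2-fold lower and 0 higher in the regressed than in the untreated stroma, with a median log2 ratio of -1.10 against 0.14 over all features tested. The chemokine genes were the lowest, Ccl2 at 320, 80.9 and 947 UPM and Cxcl1 at 719.5, 86.9 and 845 UPM in the untreated, regressed and progressed stroma. Fos, an immediate early transcription factor, was at 4995, 2329 and 5006 UPM, and Myc at 31.5, 14.0 and 76.1 UPM. The same 4 genes were at least 2-fold higher in progressed than in regressed stroma, with a median of 1.10 against -0.20 over all features, and Myc (1.27) and Ccl2 (1.57) also in progressed against untreated, where the list's median was 0.08 against -0.06 over all features. These genes answer to many signals besides PDGF.

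The other lists had medians nearer to 0 in both comparisons with the regressed stroma. Of 8 signal transducers bound by the receptors, 2 were at least 2-fold higher in regressed than untreated stroma, Pik3r1, the regulatory subunit of PI3-kinase (log2 1.08), and Plcg1, phospholipase C gamma (log2 3.35, on 65 regressed and 14 untreated UMIs), and these with Sos1 were lower in the progressed than in the regressed stroma (log2 -1.27, -3.39 and -1.17). Of 5 attenuators, the phosphatase gene Ptprj was higher (log2 1.43) in regressed than untreated stroma. Of the proteases that release or trim ligands, Pcsk5 and Plau were lower in progressed than regressed stroma (log2 -1.06 and -1.01), and St14 was higher (2.42) and Pcsk5 lower (-1.08) in progressed than untreated stroma. None of the 3 binding partners passed the fold in stroma, with Sparc at 8682, 5124 and 7029 UPM, Lrp1 at 609, 494 and 544 UPM and Nrp1 at 558, 410 and 347 UPM. Over all lists 3 genes were higher and 4 lower of 27 for regressed against untreated, 4 higher and 5 lower of 28 for progressed against regressed, and 3 higher and 1 lower of 28 for progressed against untreated, next to backgrounds of 20.8%, 20.8% and 9.27% of features called.

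In tumor cells Fos, Ccl2 and Cxcl1 differed in the same direction as in stroma between the regressed and the other tumors. Of the 5 tested, Fos (-1.92), Ccl2 (-3.08; 12 and 45 UMIs) and Cxcl1 (-5.76; 3 and 72 UMIs) were lower in regressed than untreated tumor cells on the log2 scale. Myc was higher (1.56, -0.19 to 3.96) on 20 and 3 UMIs, with limits that included 0. Fos (1.27), Ccl2 (3.0) and Cxcl1 (3.90) were higher in progressed than regressed tumor cells. The part of free stromal RNA in these values was not tested. Against untreated, progressed tumor cells were higher in Myc (2.55) and lower in Cxcl1 (-1.86), Has2 (-1.96) and Ptprj (-1.05). Among the other lists, Sparc was lower (-1.07) and Pik3r1 (1.34) and Src (1.23) higher in regressed than untreated tumor cells, and Plat (-1.11), Shc1 (-1.04) and Ptprj (-1.46) were lower in progressed than regressed. In all, 7 of 21, 6 of 22 and 4 of 20 genes passed the fold in the 3 comparisons, next to 22.7%, 17.2% and 15.3% of features. TMM factors took the share of calls that were higher from 32.3% to 43.2% for progressed against regressed tumor cells.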

How the data were processed

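Single-cell 3' RNA-seq libraries (Chromium v2) were made from 1 untreated, 1 regressed and 1 progressed tumor. The authors deposited UMI counts per gene and cell: reads were aligned to GRCm38 with GSNAP, uniquely mapping sense reads over exons were counted, and cells under a UMI minimum were left out. They also deposited counts of total UMIs per cell and cluster names made with Seurat 2.2.0, which were used unchanged. Doublet treatment is not given in the sources used here, and no doublet caller was run.

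Here, UMIs were summed over the cells of a cluster or compartment (10 stroma, 2 tumor and 7 immune clusters) and divided by the group's total to give UMIs per 1000000 (UPM). Summed totals exceeded the deposited ones by 4.42% to 6.09%. Limits are exact at 95%: Poisson for levels, Clopper-Pearson for shares, conditional binomial for ratios. They cover counting error only. A count of 0 was set to 3 UMIs over the group for a bound. With 1 tumor per state there was no test, and cells were not used as replicates. Calls are ratios of at least 2-fold among features with at least 20 UMIs in the sums compared. Shares were compared after thinning each cell to 1000 UMIs. In 3' counts a UMI is not scaled by gene length, so levels are compared between cells and not between genes.

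Named genes are the 6 members, 28 pathway genes in 5 role lists (values for those with the most UMIs and those past the fold) and, per member, the 3 features most correlated with it. The members and lists were chosen with earlier results of these data known. Entrez identifiers were matched to symbols for 31049 features and not for 5479. The interval and thinning code was tested on simulated data. Alternatives were TMM factors, totals without haemoglobin genes, equal weight per cell, thinning, leaving out the deepest 5% of cells, other choices of clusters, cells with a tdTomato or tWPRE UMI only, other UMI minimums and the deposited totals. Python 3.11.15 with numpy 2.4.6, scipy 1.17.1, pandas 2.3.3 and matplotlib 3.10.9 was used, and R 4.3.3 with edgeR 4.0.16 for TMM factors. One item of the mouse model and the genes most correlated with Pdgfc are not reported here.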

Additional observations from a re-analysis of the deposited data

How the results depend on the processing

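No paired analysis was possible because each state was 1 tumor, and for the same reason no replicate could be left out. Values here are log2 ratios unless said, and the cause of each move was not tested where the construction does not show it. Ratios near 0, such as those of Pdgfd in stroma, also changed sign under some alternatives. In tumor cells, Pdgfa for regressed against untreated was 0.30 in Tumor1 alone and -0.93 with equal weight per cell. For progressed against regressed it was 0.23 in Tumor1 alone, 1.35 with equal weight and 0.84 thinned, and for progressed against untreated 0.42 with equal weight and 0.33 thinned. Stromal receptors depended most on clusters and scaling. For regressed against untreated, Pdgfra and Pdgfrb were -0.75 and -0.36 with TMM factors, -1.45 and -1.17 in the 1 shared cluster (20 regressed cells), and 0.17 and 0.86 without Stroma10. For progressed against regressed they were 0.15 and 0.47 with TMM factors, -0.05 and 0.27 thinned, 1.53 and 1.24 in the shared cluster, and -0.83 and -0.81 without Stroma10, and Pdgfra was -0.04 with equal weight. For progressed against untreated they were -0.54 and 0.18 thinned and -0.42 and -0.22 over the 6 shared clusters, and Pdgfrb was 0.12 without the deepest 5% of cells. Without Stroma10, Pdgfc was 0.17 for regressed against untreated and -0.68 for progressed against regressed. Pdgfd was 0.16 with TMM factors and 0.14 with equal weight for progressed against regressed, and -0.42 over shared clusters for progressed against untreated. Pdgfb in vessel cells was 1.45 with equal weight for progressed against untreated, on 28 progressed cells. Pdgfb in tumor cells, on 6 regressed UMIs, was -4.47 thinned for regressed against untreated, and 4.19 thinned and 0.75 in Tumor1 for progressed against regressed. Macrophage Pdgfa for progressed against untreated stayed between 1.62 and 1.77 under alternatives chosen after seeing the data.

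Thinned to 2000 UMIs, a Pdgfa UMI was in 72.5%, 58.7% and 83.7% of untreated, regressed and progressed tumor cells, and in 85.4% and 95% of untreated and progressed cells unthinned. Stromal Pdgfra shares were 40.2%, 33.6% and 32.3% at 2000 UMIs and 58.9%, 43.3% and 52.1% unthinned, and those of Pdgfrb 36.1%, 32.0% and 37.3%, and 57.4%, 43.3% and 58.6%. Unthinned shares put progressed above regressed stroma in Pdgfra, where thinned shares did not. The number of features called 2-fold apart grew with a lower UMI minimum. At 5 UMIs and with no minimum it was 3086 and 3105, 3081 and 3081, and 2370 and 2387 in tumor cells for regressed to untreated, progressed to regressed and progressed to untreated (1576, 1460 and 1128 at 20 UMIs). In stroma it was 4726 and 4793, 4774 and 4844, and 2813 and 2813 (3070, 3086 and 1397). Leaving out haemoglobin genes or using the deposited totals, the latter chosen after seeing the data, changed no direction. Depth limited Pdgfb, Pdgfc and the regressed and progressed vessel cells most, which rest on few UMIs.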

Other observations

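In the progressed tumor, dividing cells, a cluster of their own, differed in Pdgfa and Pdgfra with the presence of a tdTomato or tWPRE UMI. Those with one (39 cells) had Pdgfa at 177 UPM (140 to 220) and those without (108 cells) at 34.5 UPM (25.0 to 46.5). Pdgfra ran the other way, at 52.1 UPM (33.0 to 78.2) with and 141 UPM (121 to 164) without, and Pdgfrb was at 136 and 116 UPM. In the other tumors no such difference was seen beyond counting error, with few cells or UMIs to show one. With and without such a UMI, Pdgfa was at 0 (up to 64.5; 5 cells) and 58.6 UPM (38.6 to 85.3; 38 cells) in the untreated tumor. It was at 137 and 105 UPM in the regressed tumor, and the limits overlapped in both tumors. Regressed Pdgfra rested on 2 UMIs with and 2 without. Over all dividing cells Pdgfra was at 42.5, 19.4 and 118 UPM and Pdgfrb at 54.1, 34.0 and 122 UPM in the untreated, regressed and progressed tumors, on 43, 75 and 147 cells.

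Over 46 cluster-by-tumor groups of at least 30 cells, the genes whose log2(UPM + 1) ran most like a member's were, by Pearson's r, Pou3f1 (0.796), Dbi (0.780) and Hbegf (0.779) for Pdgfa and Ehd4, Arhgef3 and Cracr2b for Pdgfb. They were Triqk, Lrrn2 and 2700081O15Rik for Pdgfd. For the receptors they were Lama2, Cdh11 and Dpep1 (Pdgfra) and Col6a3, Serpinf1 and Col6a2 (Pdgfrb). These are descriptions over groups that share libraries, depth and the clustering. Between members, r was 0.79 for the pair of receptors and -0.60 for Pdgfb with Pdgfrb.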
